A study of Mus musculus with 12 samples.

Results

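The facilitative glucose transporters are the membrane proteins of the Slc2a (GLUT) family, and 10 of their genes were examined here: Slc2a1, Slc2a2, Slc2a3, Slc2a4, Slc2a5, Slc2a6, Slc2a8, Slc2a9, Slc2a10 and Slc2a12. The family was chosen by the log2 ratios measured after 3 h with 5 mM methoxyacetic acid (MAA), among which Slc2a4 had the largest increase of any named gene, so the values of that condition are described below without a test. The arrays held 15 probes for these genes, out of 41174 probes and 15972 gene symbols. TM3 cells, a line of mouse Leydig cells from testis, received MAA at 1 or 5 mM, and RNA was taken after 3, 8 and 24 h. Control TM3 cells of each time had medium without MAA. MAA is the toxic metabolite of an industrial glycol ether and is known to damage the testis. Each of the 6 conditions was compared with its time-matched control on 2 two-colour Agilent arrays, which gave 12 arrays in all, and each array used RNA pooled from 3 cultures. The pair of arrays of a condition carried separate pools with the dyes exchanged, and n = 2 stands for these pools throughout. The arrays lay on 3 slides of 4. The 1 mM and 5 mM arrays of a time shared the same control condition, so their values are given side by side.

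Glucose crosses the cell membrane down its gradient through these transporters, without the use of energy. GLUT4, the product of Slc2a4, is best known from fat, heart and skeletal muscle, where it is kept in vesicles inside the cell and moved to the surface by insulin. GLUT1 (Slc2a1) and GLUT3 (Slc2a3) carry basal glucose uptake in many cells, and other members carry fructose or urate or reside on inner membranes.

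At least 1 channel was well above background on all 12 arrays for 8 of the 15 probes, which stood for 7 genes: Slc2a1, Slc2a3, Slc2a4, Slc2a6, Slc2a8 (with both of its probes), Slc2a9 and Slc2a10. Slc2a5 and a further Slc2a9 probe reached that level on 11 arrays. In a single channel of a single array, 61.5% to 70.5% of all probes were well above background, which is not the measure used for the 15 probes. The log2 ratios of the paired arrays correlated over all probes with r between 0.496 and 0.644 at 5 mM, at 0.133 and 0.310 at 8 and 24 h of 1 mM, and at -0.13 at 3 h of 1 mM. Of 8 markers of Leydig cells, Star, Cyp17a1 and Insl3 were well above background on all arrays, and Hsd3b6 and Lhcgr, the receptor for luteinizing hormone, were not on any. Of the markers of other testis cells, 3 of 5 Sertoli cell, 3 of 6 germ cell and 1 of 3 macrophage genes were above background on all arrays.

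MAA raised 4 of the 15 probes at 5 mM for 8 h, those of Slc2a3, Slc2a4, Slc2a5 and Slc2a6, and the same 4 at 24 h. A probe counted as called when its unadjusted p was under 0.005 and its change exceeded 2-fold at 5 mM or 1.5-fold at 1 mM. Over the whole array 3.06% of probes were called up at 5 mM 8 h and 3.85% at 24 h. At 1 mM the increases covered Slc2a3, Slc2a4 and Slc2a6 at 3 h (1.32% of all probes), Slc2a4 and Slc2a6 at 8 h (1.72%), and Slc2a4 at 24 h (3.26%). In RNA of whole cultures, a change in the number of cells expressing a gene and in the RNA per cell cannot be told apart. No transporter probe was called down in these 5 conditions by limma, where 2.49% and 1.77% of all probes were called down at 5 mM and 0.627%, 0.656% and 1.41% at 1 mM. At an unadjusted p under 0.05, 1 probe was lower at 5 mM 8 h and at 24 h, and 1, 2 and 0 were lower at 1 mM for 3, 8 and 24 h. Over all probes 18.9% and 20.7% were lower at that level at 5 mM, and 8.29%, 9.19% and 12.9% at 1 mM. The 2 transporter probes lower at 1 mM 8 h were that of Slc2a10 and a Slc2a9 probe not well above background on any array. At 5 mM 3 h, the condition that chose the family, Slc2a4 and Slc2a6 lay beyond the same limits upward and Slc2a10 downward, which describes the choice and is no test; over all probes the shares were 2.02% and 1.74%. The median log2 ratio of the 15 probes was 0.46 at 5 mM 8 h and 0.20 at 24 h, against medians of -0.04 and 0.03 over all probes.

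**Figure D1:**
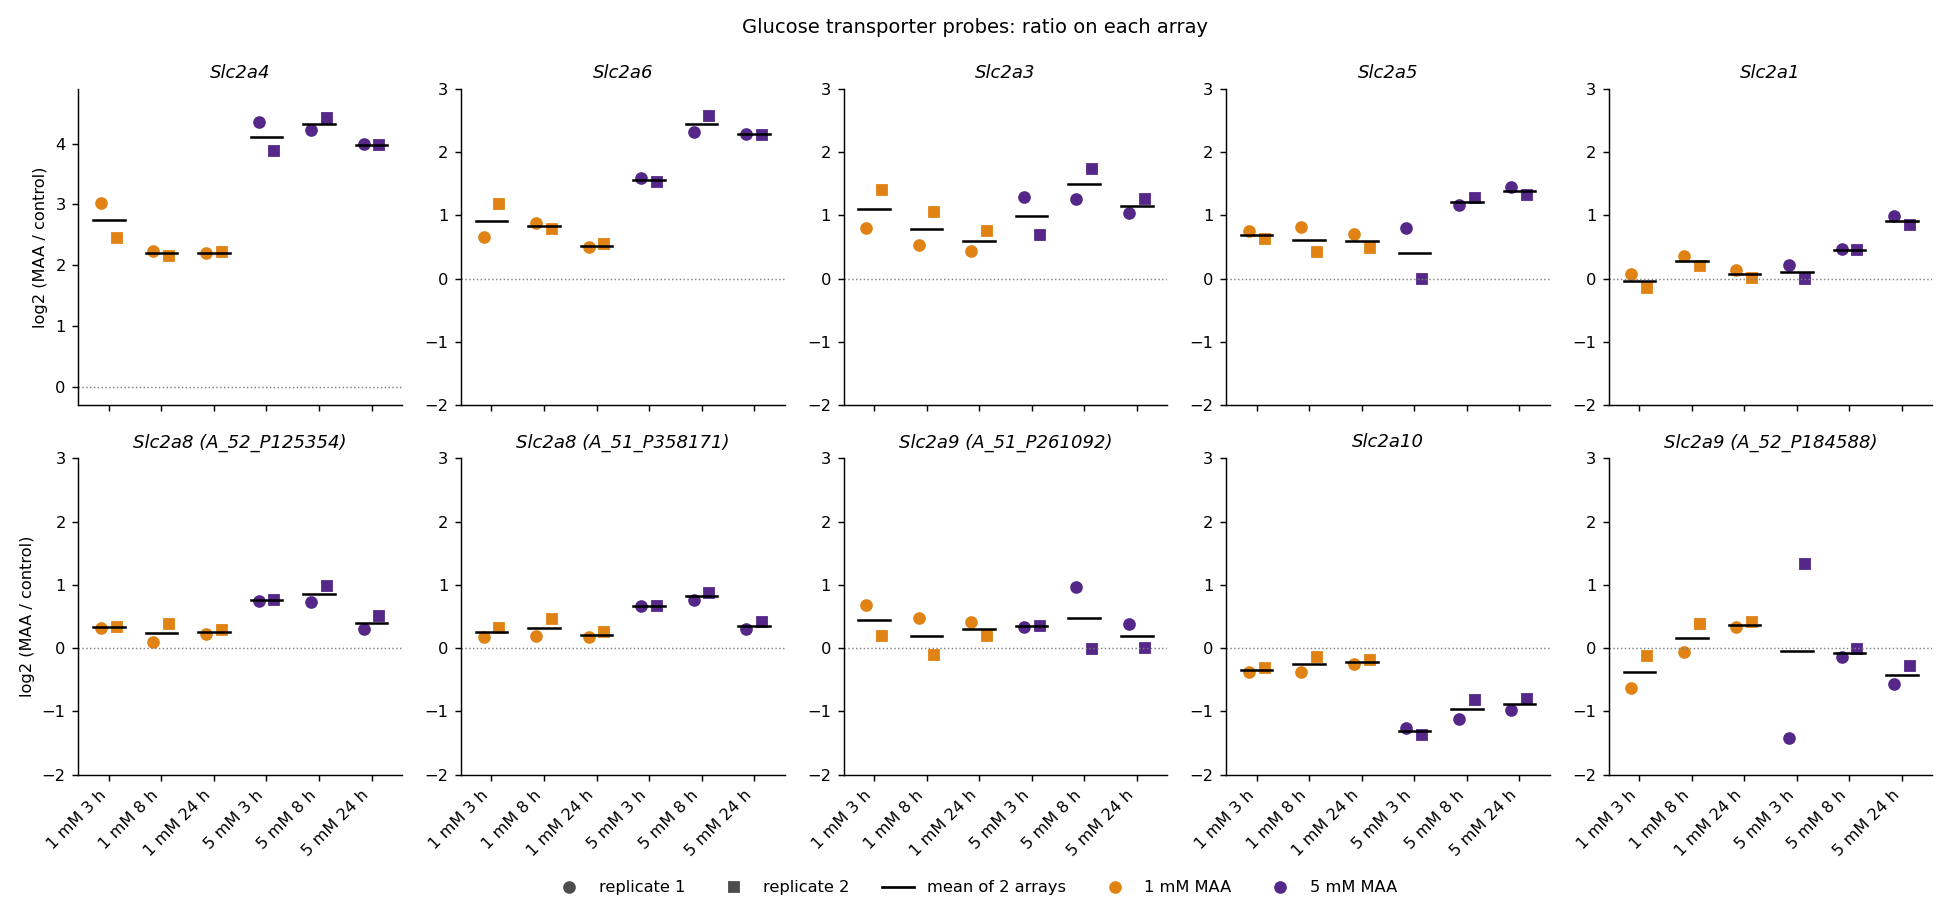
Log2 ratio of MAA over control (vertical axis) in each of the 6 conditions (horizontal axis) for the 10 transporter probes seen above background in a channel on at least 11 arrays. Points are arrays, black lines are means of 2 arrays, and the Slc2a4 panel has its own vertical scale. All 12 Slc2a4 points lie between 2.16 and 4.42, and all 12 Slc2a10 points lie below 0.

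The stretch before the transcription start is printed for Slc2a5 and Slc2a6, which were raised, and for Slc2a10, for a contrast within the family. Slc2a10 was lower in every comparison but was not called down in any tested condition. The set of RefSeq (GRCm38.p6) promoters at hand covered 8 of the 10 genes. It held no entry for Slc2a3 or Slc2a4, so the most raised member is not shown. The 250 bases before the start are shown 5′ to 3′ on the strand of the gene, with GC box matches in capitals. The GC box was read as GGGCGG on either strand.
Slc2a6, chr2:27027999-27028248, minus strand: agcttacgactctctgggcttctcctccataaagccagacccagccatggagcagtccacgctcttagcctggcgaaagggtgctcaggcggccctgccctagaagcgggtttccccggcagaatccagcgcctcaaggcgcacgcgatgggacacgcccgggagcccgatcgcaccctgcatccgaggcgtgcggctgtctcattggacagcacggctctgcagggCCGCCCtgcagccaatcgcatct
Slc2a5, chr4:150119094-150119343, plus strand: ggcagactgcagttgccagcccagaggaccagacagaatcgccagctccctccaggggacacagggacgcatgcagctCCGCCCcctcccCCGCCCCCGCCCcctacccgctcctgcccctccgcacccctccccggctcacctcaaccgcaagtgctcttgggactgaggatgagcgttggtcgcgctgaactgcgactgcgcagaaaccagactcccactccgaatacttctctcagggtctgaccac
Slc2a10, chr2:165503647-165503896, plus strand: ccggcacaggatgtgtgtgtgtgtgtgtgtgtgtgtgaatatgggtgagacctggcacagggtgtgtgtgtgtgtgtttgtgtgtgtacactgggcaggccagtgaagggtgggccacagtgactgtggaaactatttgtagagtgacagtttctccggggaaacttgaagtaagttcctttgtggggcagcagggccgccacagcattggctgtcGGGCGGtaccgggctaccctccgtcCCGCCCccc
The GC box was found 1 time before Slc2a6, 3 times before Slc2a5 and 2 times before Slc2a10, so it occurred on both sides of the contrast, and 32.7% of 32851 promoters held it. In Slc2a5 the form GCGGGGGCG of the EGR motif, which 2.57% of promoters held, was found once and overlapped a pair of GC boxes. The other form of the EGR motif (GCGTGGGCG), the E-box CACGTG, the cAMP response element TGACGTCA and the TATA box letters TATAAA were not found in any of the 8 transporter promoters on either strand. These matches describe the letters of the windows only.

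Slc2a4 was higher with MAA on all 12 arrays. Its log2 ratios were 4.36 and 3.87 at 5 mM 3 h, 4.22 and 4.42 at 8 h, and 3.99 and 3.97 at 24 h. With 1 mM they were 3.02 and 2.45 at 3 h, 2.24 and 2.16 at 8 h, and 2.20 and 2.21 at 24 h. Every 5 mM value thus lay above every 1 mM value, where those at 5 mM 3 h had chosen the family. The pairs at 3 h were the most widely spread at each concentration. The means corresponded to 20.0-fold at 5 mM 8 h (log2 4.32 ± 0.15, SE, n = 2; limma adjusted p = 6.77e-06) and 15.8-fold at 24 h (3.98 ± 0.15; adjusted p = 7.13e-06). With 1 mM the increase was 6.66-fold at 3 h (2.74 ± 0.15; limma adjusted p = 4.71e-04), 4.60-fold at 8 h (2.20 ± 0.15; 9.90e-04) and 4.61-fold at 24 h (2.21 ± 0.15; 3.93e-04). At 5 mM 3 h the mean was 4.12, or 17.3-fold. The next 2 named genes of that condition, which did not choose the family, were Olfr1045, an olfactory receptor gene, at 3.56 and Areg, which encodes the growth factor amphiregulin, at 2.91.

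The Slc2a4 probe was spotted 10 times on each array, and 6 of its 120 spots were flagged as outliers and left out. The SD among the remaining spots of an array ran from 0.0503 to 0.196 with a median of 0.101. The spread among spots was therefore small beside the ratios on every array. Spots of 1 array share a hybridization and are no replicates of the treatment.

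**Figure D2:**
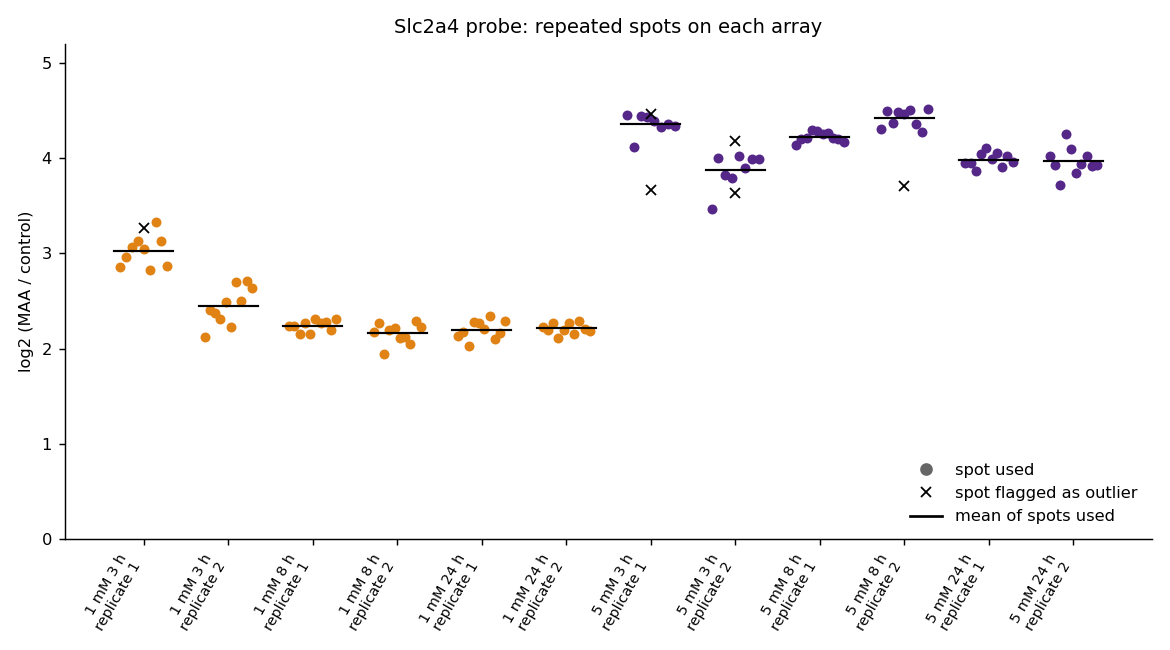
Log2 ratio of MAA over control (vertical axis) for every spot of the Slc2a4 probe on each of the 12 arrays (horizontal axis). Circles are spots used, crosses are the 6 spots flagged as outliers, and lines are the means of the spots used, which lie between 2.16 and 3.02 at 1 mM and between 3.87 and 4.42 at 5 mM.

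Both channels were well above background for Slc2a4 on every array, and the 2 channels were followed after they had been set on a common scale. The MAA channel read 750 and 651 at 5 mM 3 h, 1402 and 1109 at 8 h, and 989 and 882 at 24 h. At 1 mM it lay between 196 and 220 at all 3 times. The control channel ranged from 26.5 to 44.2 at 3 h, from 43.8 to 75.1 at 8 h and from 44.2 to 62.4 at 24 h over the 4 arrays of a time. The 3 ranges of MAA at 5 mM, MAA at 1 mM and control did not overlap at 8 or 24 h. They did not overlap at 3 h either, but the 5 mM values of that time chose the family. The share of all probes with such a separation was not counted.

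**Figure D3:**
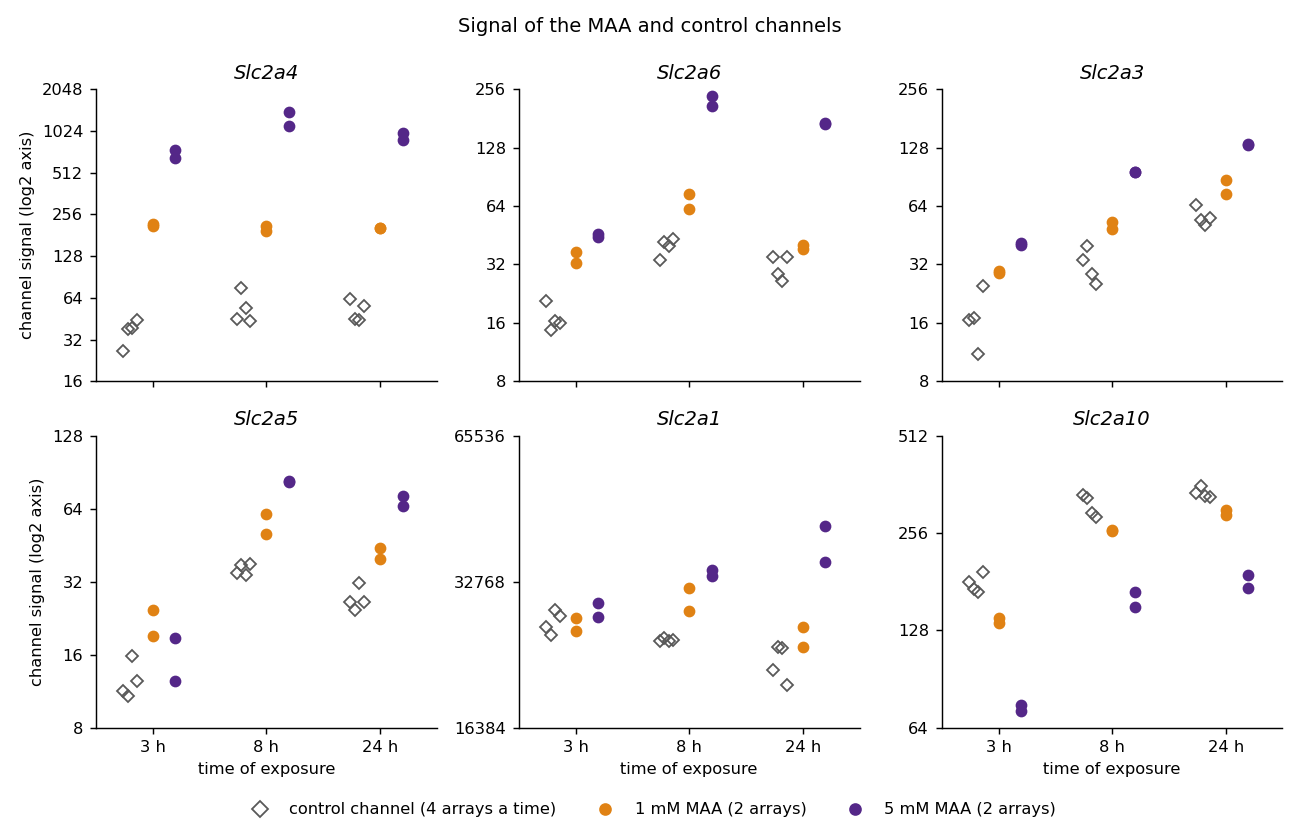
Signal of the MAA and control channels (vertical axes, log2 scale, each panel with its own range) by time of exposure (horizontal axis) for 6 transporters. Diamonds are the control channels of the 4 arrays of a time, and filled circles are the MAA channels of 2 arrays per concentration. For Slc2a4 the control signals stay at or below 75.1 and the 5 mM signals at or above 651.

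The order of the Slc2a4 ratios was 5 mM 8 h, 5 mM 3 h, 5 mM 24 h, 1 mM 3 h, and then 1 mM 24 h and 8 h, which had nearly the same mean. The place of 5 mM 3 h in this order rests on the values that chose the family. The concentrations differed: the log2 ratio at 5 mM exceeded that at 1 mM by 2.12 ± 0.21 (SE) at 8 h (limma contrast, adjusted p = 0.00231) and by 1.77 at 24 h (adjusted p = 0.00410). Within single slides the difference was 1.98 and 2.26 at 8 h and 1.79 at 24 h. The times did not differ past the threshold. The ratio at 5 mM was lower by 0.34 at 24 h than at 8 h (log2 difference -0.34, 95% interval -0.84 to 0.16; adjusted p = 0.448). At 1 mM the difference from 3 h was -0.54 at 8 h (adjusted p = 0.538) and -0.53 at 24 h (adjusted p = 0.282), and 24 h against 8 h gave 0.00 with an interval of -0.49 to 0.50. No contrast that includes 5 mM 3 h was tested.

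The size of the Slc2a4 ratios depended on the background correction and normalization, which were changed together. With normexp background correction and loess in place of the processed signals, the log2 ratios at 5 mM became 2.75, 3.59 and 3.14 at 3, 8 and 24 h, and those at 1 mM 0.78, 1.44 and 0.94. The calls at 1 mM 3 h (adjusted p = 0.238) and 24 h (adjusted p = 0.0744) were then lost, and those at 1 mM 8 h and at 5 mM 8 and 24 h still met the call rule. Over all alternatives the adjusted p ran from 1.49e-05 to 0.238 at 1 mM 3 h, from 4.34e-05 to 0.0645 at 8 h and from 1.58e-05 to 0.0744 at 24 h, and the value of 0.0645 came from the fit on the 6 arrays of 1 mM alone. Without 1 mM 3 h replicate 1 the value of that condition was 2.45, and without replicate 2 it was 3.02.

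GLUT4 is a transporter of fat and striated muscle, so markers of these cells were read on the same arrays. Of 7 adipocyte markers, Fabp4 and Retn were well above background on all 12 arrays, Lep on 8, Plin1 on 7, Cfd on 4, Cidec on 3 and Adipoq, which encodes adiponectin, on 1. Their summed signal was 417 to 832 in the control channels and 506 to 894 at 5 mM. Of 8 striated muscle markers, Acta1 was above background on all arrays, Tnnt3 on 11, Des on 9, Myh7 and Myog on 6 each, and Ckm, Mb and Myh4 on none. Their sums were 183 to 436 in controls and 215 to 428 at 5 mM. The part of such cells in the Slc2a4 result was not tested.

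Slc2a6 encodes GLUT6, a transporter found on inner membranes of the cell, and was the second most raised member at 5 mM. Its log2 ratios were 2.31 and 2.57 at 5 mM 8 h and 2.29 and 2.28 at 24 h, or 5.43-fold and 4.87-fold (limma adjusted p = 1.56e-05 and 2.29e-05). At 5 mM 3 h they were 1.59 and 1.53, but neither control signal was well above background, which leaves a bound of at least 2.90-fold. This bound sets the control at the lowest signal seen well above background on its array where its own signal was lower. A control above that lowest signal kept its own value. The bounds given here can therefore lie close to the plain ratio, 2.95-fold in this case, and are no sure minimum. Its values with 1 mM were 0.65 and 1.18 at 3 h (mean 0.92, adjusted p = 0.00795), 0.87 and 0.78 at 8 h (0.83, adjusted p = 0.0107), and 0.50 and 0.54 at 24 h (0.52, 1.43-fold, adjusted p = 0.0317), the last of which stayed under the fold threshold. Slc2a6 was thus higher on all 12 arrays, with no overlap between the concentrations. The 5 mM ratio exceeded the 1 mM ratio by 1.61 at 8 h (limma contrast, adjusted p = 0.00252) and by 1.76 at 24 h (adjusted p = 0.00196). With normexp and loess the ratios at 5 mM were 1.60 at 8 h and 1.46 at 24 h, still called, and those at 1 mM 3 and 8 h were 0.15 and 0.46, no longer called.

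Slc2a3 encodes GLUT3, a transporter with high affinity for glucose. Its signals were low: the control channel had a median of 16.7 at 3 h, 31.3 at 8 h and 55.0 at 24 h, and the MAA channel at 5 mM read 41.2 and 40.2, then 95.6 and 95.6, then 133 and 133. The treated signals at 5 mM lay above all 4 control signals of their time. The log2 ratios were 1.26 and 1.73 at 5 mM 8 h, or 2.82-fold (SE 0.22 on the log2 scale, n = 2; limma adjusted p = 0.00157), with a mean of 1.15 at 24 h, or 2.21-fold (adjusted p = 0.00590). At 5 mM 3 h the arrays gave 1.29 and 0.69. With 1 mM the ratio was 1.11 at 3 h (2.15-fold, adjusted p = 0.0348), 0.79 at 8 h and 0.60 at 24 h, and only the first was called. These calls depended on single arrays and settings: that at 1 mM 3 h was lost without its replicate 2 (0.81), in the slide block and in the fit on the 6 arrays of 1 mM alone, that at 5 mM 8 h without its replicate 2 (1.26), that at 24 h without either replicate (1.03 and 1.26) and in the slide block, and all 3 with normexp and loess (0.09, 0.79 and 0.77).

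Slc2a5 encodes GLUT5, the fructose transporter. The MAA channel read 83.4 and 82.3 at 5 mM 8 h and 72.2 and 65.7 at 24 h, above control signals of 34.0 to 37.7 at 8 h and 24.4 to 31.6 at 24 h. The ratio was 1.22 ± 0.18 (SE, n = 2) at 8 h, or 2.33-fold (limma adjusted p = 0.00164), and 1.39 at 24 h, or 2.61-fold (adjusted p = 9.65e-04). At 3 h of 5 mM the arrays gave 0.80 and -0.01, with neither control signal well above background. The ratios at 1 mM were 0.69, 0.61 and 0.59 at 3, 8 and 24 h (adjusted p = 0.0855, 0.106 and 0.0817), positive on all 6 arrays and not called; the first is a bound of at least 1.61-fold. Without either replicate of 5 mM 3 h, the 3 ratios at 1 mM passed the call rule with no change in their values, as they did with each array centred on its median (0.70, 0.63 and 0.62). With normexp and loess the ratios at 5 mM 8 and 24 h were 0.66 and 0.69 and were no longer called.

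Slc2a1 encodes GLUT1, the general basal transporter of growing cells in culture. Its signals were far above background, at 20090 to 28640 in the control channels. The log2 ratio at 5 mM was 0.22 and -0.01 at 3 h, 0.47 and 0.45 at 8 h (mean 0.46 ± 0.09, SE, n = 2; limma adjusted p = 0.00605), and 0.99 and 0.84 at 24 h (mean 0.92, 1.89-fold, adjusted p = 2.49e-04). Both means with a test passed the adjusted p threshold and stayed under the 2-fold limit of the call rule. At 1 mM the ratios were -0.04, 0.28 and 0.08 at 3, 8 and 24 h, with adjusted p of 0.995, 0.134 and 0.719. The concentrations differed at 24 h, by 0.84 (limma contrast, adjusted p = 0.00886; 0.85 within a slide), and the difference at 8 h was 0.18 with a 95% interval of -0.11 to 0.47. The difference between 24 and 8 h at 5 mM was 0.46 with an adjusted p of 0.0683.

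Slc2a8 encodes GLUT8, an intracellular transporter that is well expressed in testis, and was read by 2 probes that gave like values. At 5 mM the probe A_52_P125354 gave 0.76, 0.86 and 0.40 at 3, 8 and 24 h, and the probe A_51_P358171 gave 0.66, 0.82 and 0.35. Both passed an adjusted p of 0.05 at 8 h (limma, 3.84e-04 and 2.25e-04) and at 24 h (0.0141 and 0.0127), at changes under 2-fold. At 1 mM the means lay between 0.21 and 0.33 and did not pass. The 5 mM ratio exceeded the 1 mM ratio at 8 h by 0.62 (adjusted p = 0.0280) and 0.49 (adjusted p = 0.0351). The ratio at 5 mM dropped by 0.46 on the log2 scale between 8 and 24 h for A_51_P358171 (adjusted p = 0.0461), and this was the only transporter difference between times past the threshold; 8.91% of all probes passed in that contrast. The other Slc2a8 probe gave -0.45 (adjusted p = 0.0833).

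Slc2a10, the gene for GLUT10, a transporter of inner membranes whose loss causes arterial tortuosity, was the one member lower with MAA on all 12 arrays. At 5 mM 3 h its log2 ratios were -1.26 and -1.37. At 8 h they were -1.12 and -0.81 (mean -0.97 ± 0.10, SE, n = 2; limma adjusted p = 2.39e-04), and at 24 h -0.98 and -0.80 (mean -0.89, adjusted p = 3.96e-04), both short of a 2-fold decrease. Without 5 mM 8 h replicate 2 the value at 8 h was -1.12 and passed the call rule. The treated signals at 5 mM read 71.9 and 75.0 at 3 h, 152 and 169 at 8 h, and 172 and 190 at 24 h, below control ranges of 168 to 194, 287 to 335 and 330 to 358. The ratios at 1 mM were -0.35, -0.25 and -0.22 and were not called. The ratio at 5 mM lay below that at 1 mM by a log2 difference of -0.71 at 8 h (adjusted p = 0.0182) and -0.67 at 24 h (adjusted p = 0.0251).

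The control signals of several members differed between times. Over 4 arrays a time, the control median of Slc2a6 was 16.2 at 3 h, 40.9 at 8 h and 31.8 at 24 h, that of Slc2a5 11.9, 36.0 and 26.4, and that of Slc2a10 177, 313 and 336. The ranges at 3 h did not overlap those at 8 h for these 3 genes. The same held for Slc2a3, both Slc2a8 probes and the brightest Slc2a9 probe, and for Slc2a1, whose control was lower at 8 h. It also held for a Slc2a9 probe not well above background on any array. At 3 h no control signal of Slc2a5 was well above background. The control signals of Slc2a6 and the brightest Slc2a9 probe were not on the 5 mM 3 h arrays, nor was that of Slc2a3 on 1 mM 3 h replicate 2. The 3 h values of these genes thus rest wholly or partly on such signals. The share of all probes that do so was not counted, so this is not shown to be particular to the members.

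The remaining probes gave little. The best Slc2a9 probe, for a transporter of urate, had mean log2 ratios between 0.19 and 0.48, none called, with control signals of 15.2 to 37.6. Its probe A_52_P184588 had means between -0.42 and 0.37, none called, with control signals of 6.39 to 21.3. The paired arrays of this probe at 5 mM 3 h disagreed, with -1.43 and 1.34, and neither control was well above background there. Slc2a12, one of the 2 Slc2a2 probes and one of the 4 Slc2a9 probes were not well above background on any array, and no fold is given for them. The other Slc2a2 probe was well above background in the MAA channel on 2 arrays, both of 1 mM 24 h, and in the control channel on 5. The latter included both arrays of 5 mM 24 h, where the MAA channel was not. The last Slc2a9 probe was close to background and not called. Slc2a2 encodes GLUT2 of liver and pancreatic beta cells, and Slc2a12 encodes GLUT12, which like GLUT4 responds to insulin.

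Between concentrations, 5 of the 15 probes differed at 8 h (those of Slc2a4, Slc2a6, Slc2a8, with both probes, and Slc2a10) and 4 at 24 h (Slc2a1, Slc2a4, Slc2a6 and Slc2a10). Over all probes 10.1% and 8.41% differed. Between times at 1 mM, limma found no member past an adjusted p of 0.05, where 0%, 1.85% and 0.576% of all probes passed for 8 against 3 h, 24 against 3 h and 24 against 8 h. At an unadjusted p under 0.05, 4, 3 and 1 of the 15 probes passed in these contrasts, beside 8.59%, 16% and 11% of all probes. Each of these counts includes a Slc2a9 probe that was not well above background on any array, and that probe alone makes up the last.

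The genes whose log2 ratios over the 12 arrays followed those of Slc2a4 most closely, among 15029 named probes above background on every array, were Thnsl1 (Pearson r = 0.984), Riok3 (0.980), Fam110b (0.976), Clcn2 (0.975) and Kank3 (0.974). The 12 arrays include those of 5 mM 3 h, whose Slc2a4 values chose the family, so r is a description and no test. The points share 6 conditions and 3 control times, and r says nothing of size: at 5 mM 8 h the log2 ratio was 2.41 for Kank3, 1.16 for Thnsl1, 1.04 for Clcn2, a chloride channel gene, 0.26 for Riok3, a kinase gene, and 0.06 for Fam110b. Within the family r with Slc2a4 was 0.884 for Slc2a6, 0.808 and 0.750 for the Slc2a8 probes, 0.594 for Slc2a3, 0.520 for Slc2a1, 0.143 for Slc2a9 and -0.90 for Slc2a10.

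Other genes of glucose handling were read by list, and their counts stand beside the shares of all probes given above, which for increases were 3.06% and 3.85% at 5 mM 8 and 24 h and 1.32%, 1.72% and 3.26% at 1 mM. Of 47 probes for 29 genes of GLUT4 vesicles and insulin signaling, 5 were past the limits upward at 5 mM 3 h, 4 at 8 h and 2 at 24 h, and 1, 0 and 0 at 1 mM, with none called down. These probes stood for 3 genes at 5 mM 3 h, 3 at 8 h and 1 at 24 h, and for 1 gene at 1 mM 3 h. Pik3cb, a catalytic subunit of phosphoinositide 3-kinase, rose at 5 mM 8 h (1.07, adjusted p = 2.96e-05), although its other probe was not called. At 5 mM 3 h, Pdpk1, a kinase upstream of Akt, stood at 1.30, and Ptpn1, the phosphatase that acts on the insulin receptor, at 1.13; at 8 h they gave 0.72 and 0.77, short of the limit. The list median at 5 mM 8 h was 0.17, against -0.04 over all probes.

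Of 32 probes for 25 regulators of Slc2a4 transcription, 1 was called up and 1 down at 5 mM 8 h and 2 were called down at 24 h. Of all probes, 2.49% and 1.77% were called down at these times. At 1 mM, 1 was called up at 3 h, 0 at 8 h and 2 at 24 h, with none down, and at 5 mM 3 h 1 was past the limit upward. The 2 probes at 1 mM 24 h stood for 1 gene. Nr4a1, an early-response nuclear receptor, had ratios of 1.92, 1.06 and 0.75 at 5 mM (limma adjusted p = 3.75e-05 at 8 h) and 0.88 at 1 mM 3 h (adjusted p = 0.00167). Hdac9, a class II histone deacetylase, fell at 5 mM 24 h (-2.02, adjusted p = 0.00208), and Esr1, an estrogen receptor, fell at 5 mM 8 h (-1.31, adjusted p = 0.00280), each on 1 of its 2 probes. With normexp and loess no probe of the list was called down at either time. The list median was 0.04 at 5 mM 8 h and 0.03 at 24 h, against -0.04 and 0.03 over all probes.

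Glycolysis and lactate genes were called late. Of 36 probes for 24 genes, 2 were called up at 5 mM 8 h and 8 at 24 h, and 0, 0 and 7 at 1 mM, with none down and none past the limits at 5 mM 3 h. The called probes stood for 1 gene at 5 mM 8 h, 4 genes at 5 mM 24 h and 5 genes at 1 mM 24 h. The list median at 5 mM 24 h was 0.44, against 0.03 over all probes. Pfkp, a phosphofructokinase, reached 1.52 (limma adjusted p = 8.04e-06), Pgam2, a phosphoglycerate mutase best known in muscle, 1.34 (adjusted p = 2.88e-05), and Hk1, a hexokinase, 1.28 (adjusted p = 6.55e-05), with 3 of the other 4 Hk1 probes also called. Ldhc, the lactate dehydrogenase of germ cells, rose at least 3.36-fold at 5 mM 24 h (adjusted p = 4.64e-05), its control not being above background. With normexp and loess 4 probes of the list were called at 5 mM 24 h, 2 at 1 mM 24 h and 0 at 5 mM 8 h.

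Of 32 probes for 24 genes of other fates of glucose and glucose sensing, 3 were called up at 5 mM 8 h, 4 at 24 h and 3 at 1 mM 24 h, and 1 was past the limit at 5 mM 3 h, with none down and none called at 1 mM 3 or 8 h. The called probes stood for 2 genes at 5 mM 8 h, 3 at 5 mM 24 h and 3 at 1 mM 24 h. Txnip, a brake on glucose uptake, reached 1.07 at 5 mM 8 h (limma adjusted p = 8.62e-05), and Akr1b3, the aldose reductase gene, 1.01 at 24 h (adjusted p = 4.41e-05). Gfpt2, an enzyme of the hexosamine pathway, rose at least 2.09-fold at 5 mM 8 h (adjusted p = 0.0127). Prkab2, a subunit of the energy sensor AMPK, stood at 1.24 at 5 mM 3 h. The list median at 5 mM 24 h was 0.34.

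Of 19 probes for 15 other sugar transporters, 1 was called up at 5 mM 8 h and 3 at 24 h, and 1, 0 and 3 at 1 mM, with none down. These were low signals. Slc5a4a, a sodium-coupled sugar carrier gene, rose at 5 mM 24 h with a log2 ratio of 2.04 (limma adjusted p = 1.89e-04), and Slc5a11, a sodium-coupled inositol carrier, with 1.70 (adjusted p = 0.00826). Slc5a4b rose at least 1.98-fold there, and its other 2 probes were not called. Slc5a11 was also called at 1 mM 24 h, with the higher ratio of 2.29 (limma adjusted p = 0.00752) and neither control signal well above background. Slc5a4a was called at 1 mM 24 h with 0.77 (adjusted p = 0.0386). With normexp and loess none of the 19 was called in any condition. The list median at 5 mM 24 h was 0.21.

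**Figure D4:**
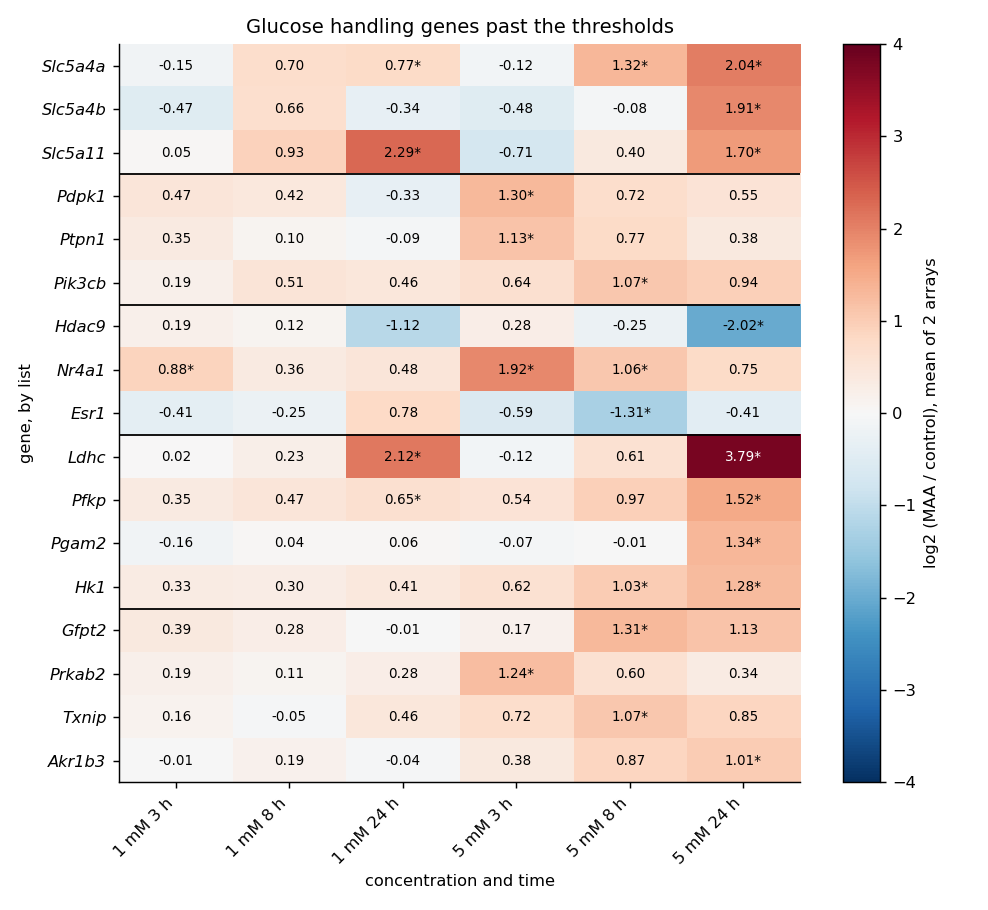
Mean log2 ratio of MAA over control in each condition (horizontal axis) for the genes named from the 5 lists (vertical axis; lists parted by lines, from the top other sugar transporters, GLUT4 vesicles and insulin signaling, regulators, glycolysis and lactate, other fates of glucose). Colour and printed value give the mean of 2 arrays, and stars mark values past the call limits. Ldhc at 5 mM 24 h has the highest value, 3.79, a ratio against a control below background, and Hdac9 the lowest, -2.02.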

How the data were processed

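RNA from TM3 cells was hybridised to 12 two-colour arrays, with MAA in the green channel in replicate 1 and in the red channel in replicate 2. The authors extracted intensity values with Agilent Feature Extraction 9.5.3.1 (per the file headers), which had corrected background and dye bias in the processed intensities. The deposited log10 ratios, already turned to MAA over control, served as an alternative. The columns for genes held accessions, so the 10 members were found through RefSeq (GRCm38.p6) by accession, with 22072 of 41174 probes named. The file's accessions stand for the gene names that the choice of members asks for.

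Log2 MAA/control was computed from the processed signals without the 1639 control spots and without spots flagged as outliers (124 to 208 per array), and repeated spots were averaged. Where a channel was well above background on neither array, a bound is given for some of the values. The log2 ratios printed for such cases in text and figures, as for the best Slc2a9 probe at 5 mM 3 h, rest on a signal not well above background. All 12 arrays were fitted in limma 3.58.1 (R 4.3.3) with 1 coefficient per condition, 6 residual degrees of freedom and moderated statistics, and p-values were adjusted by Benjamini-Hochberg over all probes. The thresholds are those of the study, whose own error model was replaced by limma. The fit was tested on simulated data. Channel signals were set on one scale by Aquantile, which leaves them open to dye bias, and levels of different probes are not compared. Python 3.11.15, pandas 2.3.3 and matplotlib 3.10.9 were used for sequences and figures.

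Every member was fitted in all 6 conditions, although values by condition are not printed for every probe. From each list the called genes with the largest change at 5 mM, at most 4, are named, by the probe with the highest mean signal, as well as the 5 genes closest to Slc2a4. One gene that this rule picks is not reported here. The members, lists and markers were chosen with earlier results of these data known. The pools came from separately treated cultures, and their number limits the precision. Alternatives were background and normalization, the deposited ratios, centring, a filter on dim probes, flagged spots, replicate and slide blocks, a trend, the arrays of 1 concentration, an adjusted p rule, and leaving out each array.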

Additional observations from a re-analysis of the deposited data

Results flagged for a closer look

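Among 30 groups of 4 control signals (10 probes at 3 times), 2 held a value far from the other 3. For the Slc2a8 probe A_51_P358171 the control channel of 1 mM 3 h replicate 2 read 69.3, and the other 3 read 88.4 to 91.9. For the Slc2a9 probe A_52_P184588 that of 5 mM 3 h replicate 2 read 6.39, and the other 3 read 11.95 to 12.96. About 1 such group in 20 is expected by chance.

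Of 60 differences tested between times or concentrations, 10 passed an adjusted p of 0.05 (limma). The log2 ratio at 5 mM minus that at 1 mM was 2.12 (adjusted p = 0.00231) at 8 h and 1.77 (0.00410) at 24 h for Slc2a4, and 1.61 (0.00252) and 1.76 (0.00196) for Slc2a6. It was 0.84 (0.00886) at 24 h for Slc2a1, and -0.71 (0.0182) at 8 h and -0.67 (0.0251) at 24 h for Slc2a10. For Slc2a8 it was 0.62 (0.0280) and 0.49 (0.0351) at 8 h with its 2 probes, and the probe A_51_P358171 differed by -0.46 (0.0461) between 24 and 8 h at 5 mM.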

How the results depend on the processing

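The Slc2a4 calls at 5 mM 8 and 24 h and at 1 mM 8 h, and its 2 differences between concentrations, kept their direction and met the call rule, or for the differences an adjusted p of 0.05, in all alternatives run. The adjusted p of Slc2a4 at 1 mM 8 h was 0.0645 in the fit on the 6 arrays of 1 mM alone. With normexp (offset 50) and loess, Slc2a4 gave 2.75 at 5 mM 3 h, 0.78 at 1 mM 3 h and 0.94 at 1 mM 24 h. The added offset lowers the ratios of dim probes by construction. Its differences at 1 mM, none past the threshold, changed sign: 0.66 for 8 against 3 h and 0.16 for 24 against 3 h. That for 24 against 8 h was -0.50 there, -0.12 with a slide block, -0.020 with the median of all spots (chosen after seeing the data), and -0.036 to 0.046 when single arrays were left out.

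With normexp and loess the transporter probes called were 1 up and 0 down at 5 mM 3 h, 2 up at 5 mM 8 h, 2 up at 5 mM 24 h, and 0, 1 and 0 up at 1 mM for 3, 8 and 24 h. Glycolysis calls there were 0 at 5 mM 8 h, 4 at 5 mM 24 h and 2 at 1 mM 24 h, against 2, 8 and 7. With an adjusted p under 0.05 and no fold limit, which was not applied to 5 mM 3 h, 7 were up and 1 down at 5 mM 8 h, 7 up and 1 down at 5 mM 24 h, and 2 up at 1 mM 24 h. Over all 41174 probes this rule called 12531, 12519 and 4659 in these conditions, in either direction. The number of transporter probes up at 1 mM 24 h was also 2 with centring on the median and with the deposited ratios. Leaving out single arrays gave 1 to 2 down at 5 mM 3 h, 0 to 1 down at 5 mM 8 h, and 1 to 2 up at 1 mM 24 h, where 2 was reached without either array of 1 mM 3 h or of 5 mM 3 h. Leave-one-out ranges that crossed 0 were -0.15 to 0.066 for Slc2a1 at 1 mM 3 h, and -0.012 to 0.97 at 5 mM 8 h and -0.11 to 0.48 at 1 mM 8 h for Slc2a9, whose probe A_52_P184588 ranged from -0.063 to 0.38 at 1 mM 8 h and gave -0.14 with a slide block. Where not stated, the cause was not tested.

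The replicate number marks the dye orientation. Deviations of same-numbered arrays correlated at 0.0750 to 0.515 between conditions, over 0.1 in 14 of 15 pairs. Since 1 pair stayed under 0.1, the fit was left without the block. The median correlation was 0.38, so same-numbered arrays shared part of their deviation, which the p-values of that fit do not take into account. With a replicate block the Slc2a4 ratios stayed at 4.12, 4.32 and 3.98 at 5 mM and 2.74, 2.20 and 2.21 at 1 mM, with no change of call, and Slc2a5 at 1 mM 3 h was called (0.69). Over all probes, 2302 against 2284 were called at 5 mM 8 h, and normexp with loess called 1030. Weak signals set the limit: the bounds above stand where a channel was not above background.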
